A study of Mus musculus with 12 samples.

Results

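The aminoacyl tRNA synthetase genes were examined in mouse peritoneal macrophages across 2 genotypes and 2 diets. Members were taken by gene symbol, as every cytosolic or mitochondrial synthetase symbol of the form Aars1, Aars2, Farsa, Farsb or Eprs1, which gave 37 of the 12339 genes in the deposited count table. Of these, 20 encode cytosolic enzymes and 17 mitochondrial enzymes. All 37 passed the filter on low counts, none was at 0 in any library, and the lowest member count was 35.

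Per the labels, all mice of all groups received the same injection at 8 weeks of age. They then stayed on chow or took a high-fat diet (HFD) for 4 weeks, and macrophages elicited with thioglycolate were then collected by peritoneal lavage. The genotypes are wild type (WT) and meKO, read here from the series title as a myeloid knockout of protein kinase C epsilon (gene Prkce), with no recombinase line named. The design text counts 8 mice of each genotype, 4 of them on HFD, and the 12 libraries analysed here form 4 groups of 3, a chow and an HFD group of either genotype. Since the labels do not tie each library to its own mouse, p-values measure the spread between these libraries.

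Aminoacyl tRNA synthetases join each amino acid to its tRNA and so supply the ribosome with charged tRNA. Most amino acids have one enzyme for the cytosol and a second, encoded by another nuclear gene, for mitochondria, while Gars1 and Kars1 make both forms from a single gene. Several cytosolic enzymes sit in a multi-synthetase complex held together by the scaffold proteins Aimp1, Aimp2 and Eef1e1. When amino acids are short or protein folding is stressed, the transcription factor ATF4 raises many cytosolic synthetase genes together with Asns, Ddit3 and amino acid transporters, and interferon gamma raises Wars1.

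Facts of the whole data set that touch these genes are as follows. Total counts lay between 25844958 (meKO HFD replicate 3) and 37282772 (replicate 2 of meKO chow), and the members took 0.159% to 0.173% of them. Prkce stood at 2.01 to 4.44 CPM (counts scaled to library size with TMM factors) in the 6 WT libraries and at 0.950 to 1.78 CPM in the 6 meKO libraries, from 25 to 151 counts. All 7 macrophage markers were present, with Adgre1 at 513 to 697 CPM. Lyz2 ran from 30482 to 53835 CPM in the 6 WT libraries. In meKO it was at 69.3 CPM in meKO chow replicate 2 and from 16293 to 21310 CPM in the others, all below the WT libraries. Libraries differed in their balance of long and short transcripts. The measure was the median log2 deviation of the 25% of genes with the longest transcripts minus that of the 25% with the shortest. It was 0.73 and 0.80 in WT chow replicates 1 and 2, and from -0.50 to 0.10 in the other 10. Diet results of called members are therefore given also after a correction of each library for transcript length and GC content. In bulk RNA, fewer cells of a type and less RNA per cell cannot be told apart.

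The promoters of the members were read first, because ATF4 and the related CEBP factors bind a composite DNA element. RefSeq windows on build GRCm38.p6 were held for 27 of the 37 genes, and the 250 bases before each start were searched on both strands for the letters TGATGNAA, which read TTNCATCA on the opposite strand. The element was found in 3 of the 27, Aars1, Gars1 and Tars1 (11.1%), against 3.45% of all 32851 promoter windows. A match is a description of letters and not a bound site. The windows are printed 5′ to 3′ on the strand of the gene, with the match in capitals: Aars1 at chr8:111033592-111033841 on the plus strand, Gars1 at chr6:55037751-55038000 on the plus strand, Tars1 at chr15:11399659-11399908 on the minus strand, and, for contrast, Farsa at chr8:84856736-84856985 on the plus strand, a gene that rose on HFD and whose window holds no match.
Aars1: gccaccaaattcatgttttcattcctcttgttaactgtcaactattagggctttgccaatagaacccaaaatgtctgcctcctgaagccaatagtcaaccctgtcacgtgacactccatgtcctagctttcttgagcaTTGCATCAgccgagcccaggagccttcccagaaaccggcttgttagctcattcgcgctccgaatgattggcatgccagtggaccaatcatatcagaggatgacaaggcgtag
Gars1: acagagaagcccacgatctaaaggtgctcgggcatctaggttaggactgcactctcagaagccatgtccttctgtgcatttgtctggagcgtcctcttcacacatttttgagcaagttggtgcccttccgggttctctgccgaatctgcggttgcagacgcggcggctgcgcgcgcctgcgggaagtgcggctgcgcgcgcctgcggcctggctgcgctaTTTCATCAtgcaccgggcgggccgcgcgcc
Tars1: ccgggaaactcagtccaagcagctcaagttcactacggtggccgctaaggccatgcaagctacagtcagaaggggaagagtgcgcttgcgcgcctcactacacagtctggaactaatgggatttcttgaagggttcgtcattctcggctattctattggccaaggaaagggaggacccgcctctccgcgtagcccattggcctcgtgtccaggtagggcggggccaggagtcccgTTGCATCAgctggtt
Farsa: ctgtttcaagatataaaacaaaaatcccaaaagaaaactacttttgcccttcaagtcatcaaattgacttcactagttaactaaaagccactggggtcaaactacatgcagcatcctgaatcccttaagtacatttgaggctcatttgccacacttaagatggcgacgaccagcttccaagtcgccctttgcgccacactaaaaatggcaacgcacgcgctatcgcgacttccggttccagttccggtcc
The match begins 112 bases before the start in Aars1, 30 bases before it in Gars1 and 15 bases before it in Tars1. The Aars1 window lies inside the span of its RefSeq gene, 111027778 to 111055569, so the start used there is not the outer end of that gene. Among the 10 members without a window were Cars1, Hars1, Hars2, Lars1, Nars1, Pars2, Rars1, Vars1 and Wars1.

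Transcript levels of the 37 genes spanned a wide range when divided by transcript length (CPM per kilobase of the longest annotated transcript). Nars1, the asparagine enzyme, was highest at 58.0 ± 3.76 CPM per kilobase (SD, n = 12), followed by Rars1, the arginine enzyme of the multi-synthetase complex, at 48.2 ± 9.22. Rars1 and Qars1, the glutamine enzyme at 45.7 ± 3.43, differ by less than their spread. Vars1, the valine enzyme, was the lowest cytosolic member at 2.37 ± 0.738 CPM per kilobase. Among mitochondrial members Lars2 was highest at 19.5 ± 5.90 and Mars2 lowest at 0.449 ± 0.0666, the latter over an annotated transcript of 11294 bases. The median was 18.6 CPM per kilobase for cytosolic and 2.69 for mitochondrial genes. In 13 of the 14 amino acids served by a cytosolic and a mitochondrial gene of the same letter, the cytosolic gene was higher, with a median ratio of 4.26 and a highest ratio of 29.9 for Nars1 over Nars2. Leucine was the exception, with a ratio of Lars1 to Lars2 of 0.686, and isoleucine was nearly even at 1.06. With the median in place of the longest annotated transcript Iars2 came to 18.5 CPM per kilobase against 10.1 for Iars1.

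**Figure D1:**
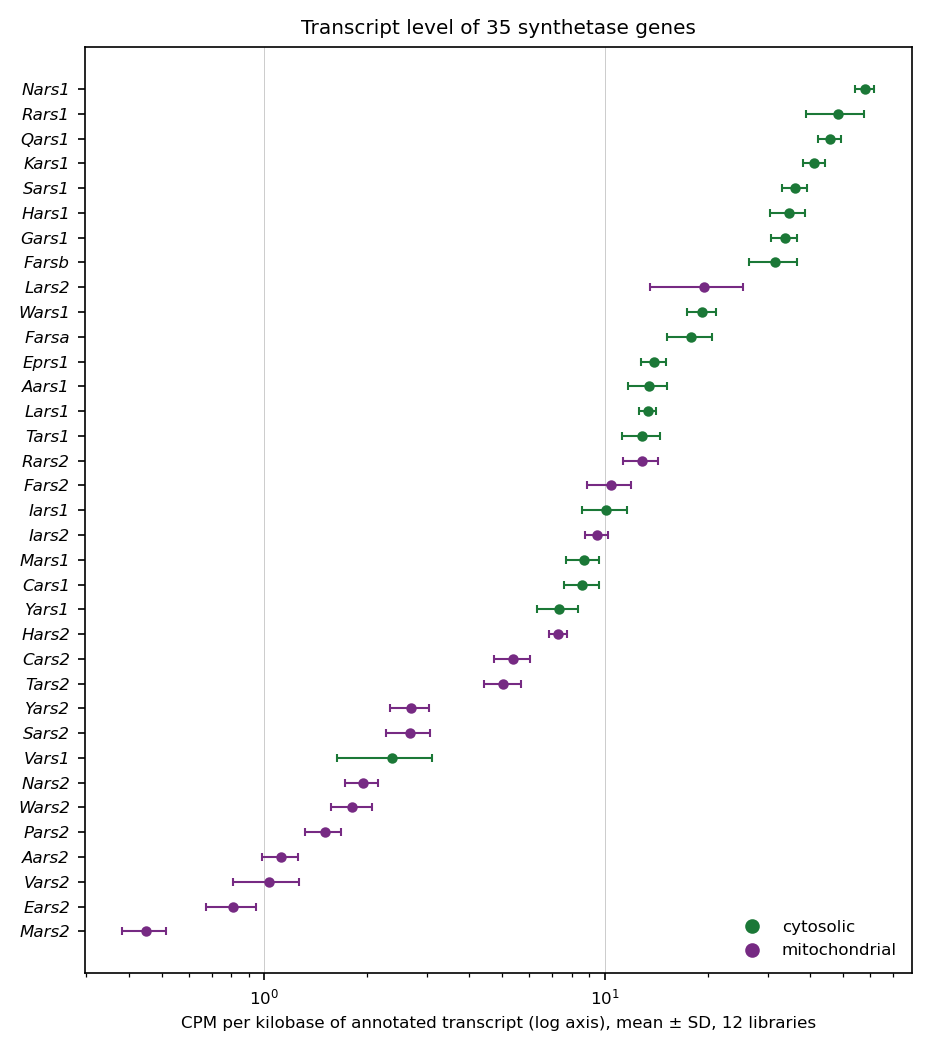
Level of 35 of the 37 synthetase genes in CPM per kilobase of the longest annotated transcript, on a log axis; points are means and bars SD over 12 libraries, green for cytosolic and purple for mitochondrial genes. Cytosolic genes fill the upper places, from Nars1 at 58.0, with Vars1 at 2.37 as the lowest of them, and Lars2 at 19.5 is the highest mitochondrial gene.

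Summed over the 20 cytosolic genes, transcript levels were higher on HFD than on chow in both genotypes. The sums were 1268, 1277 and 1288 CPM in WT chow and 1379, 1409 and 1489 CPM in WT HFD. They were 1372, 1392 and 1351 CPM in meKO chow and 1422, 1506 and 1515 CPM in meKO HFD. With TMM factors, chow and HFD libraries did not overlap in either genotype, and each meKO chow sum also lay above each WT chow sum. The share of total counts uses no such factors and was taken over all 37 members. It was 0.169% in WT chow replicate 1, against 0.168% in WT HFD replicate 1 and 0.162% to 0.167% in meKO chow. On that scale the WT diet groups overlapped and meKO chow did not lie above WT chow, while the meKO diet groups stayed apart. The 16 mitochondrial genes other than Lars2 summed to 201 to 210 CPM in WT chow, 208 to 216 in WT HFD, 210 to 217 in meKO chow and 210 to 228 in meKO HFD, so chow and HFD libraries overlapped in both genotypes.

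**Figure D2:**
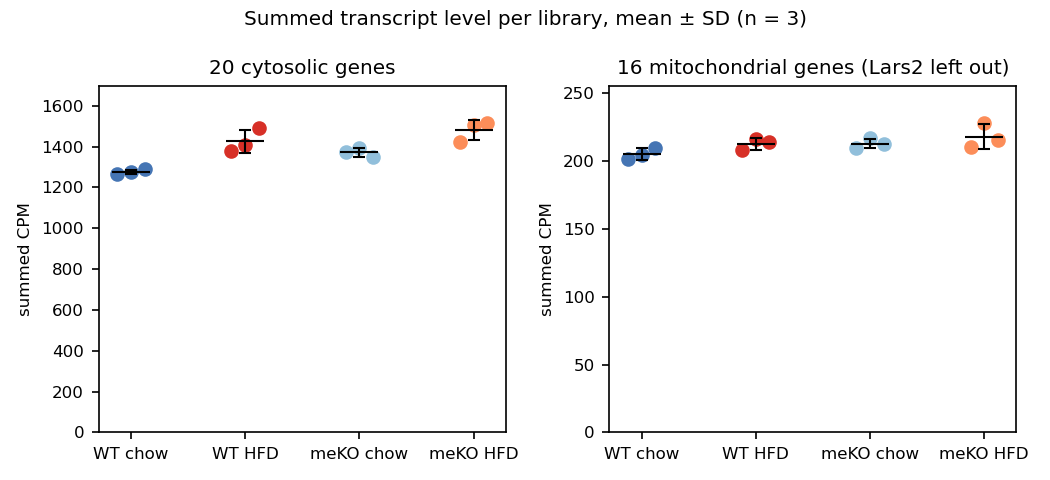
Summed CPM per library for the 20 cytosolic genes (left) and 16 mitochondrial genes without Lars2 (right); points are libraries, bars the mean and SD of 3. Cytosolic sums run from 1268 to 1288 in WT chow and from 1379 to 1489 in WT HFD, while the mitochondrial sums of chow and HFD libraries overlap.

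The first comparison asks what HFD did in WT macrophages. Hars1, Farsa and Aars1 rose and Vars1 and Iars1 fell, so that 5 of the 37 genes (13.5%) passed an adjusted p under 0.05 in edgeR's quasi-likelihood test, against 21.3% of all genes (9.5% higher and 11.8% lower). All 5 are cytosolic, and no mitochondrial gene passed. The median log2 change was 0.18 over the members (0.21 over cytosolic and 0.08 over mitochondrial genes) against -0.03 over all genes. Groups did not overlap for 13 members with HFD higher and 3 with HFD lower, against 19.4% and 19.9% of all genes.

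Vars1 (chromosome 17, 35000907 to 35016329 on GRCm38.p6), which charges valine, showed the largest change. It stood at 16.9, 14.0 and 10.9 CPM in WT chow and at 6.96, 7.88 and 7.64 CPM in WT HFD. Each WT chow library lay above each WT HFD library, and replicates 1 and 2 were highest. The log2 change was -0.90 ± 0.18 (SE; edgeR adjusted p = 0.0114). Iars1, the isoleucine enzyme of the multi-synthetase complex, stood at 58.1, 52.9 and 43.7 CPM in WT chow and at 34.4, 41.3 and 37.4 CPM in WT HFD. Its groups did not overlap either, and the log2 change was -0.45 ± 0.13 (edgeR adjusted p = 0.0315). Both have long transcripts, of 4137 and 4426 bases, and after the length and GC correction neither passed: the log2 change was -0.45 for Vars1 (edgeR adjusted p = 0.0997, range over 23 alternatives 0.000151 to 0.439) and -0.23 for Iars1 (0.136, range 0.000733 to 0.680). Over all genes with a transcript of 3500 bases or more the median log2 change was -0.29, against 0.13 for shorter ones.

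Hars1, the histidine enzyme, went from 55.7, 56.1 and 61.8 CPM in WT chow to 66.8, 75.7 and 81.4 CPM in WT HFD. Its log2 change was 0.37 ± 0.11 (edgeR adjusted p = 0.0299). Farsa encodes the catalytic subunit of the cytosolic phenylalanine enzyme and went from 28.6, 25.2 and 27.2 CPM to 31.8, 32.8 and 38.5 CPM. It changed by 0.35 ± 0.11 on the log2 scale (edgeR adjusted p = 0.0388). Aars1, which charges alanine, went from 68.4, 67.2 and 60.1 CPM to 74.5, 80.6 and 86.5 CPM, a log2 change of 0.30 ± 0.10 (edgeR adjusted p = 0.0464). In all 3 the WT HFD libraries lay above the WT chow libraries. With the length and GC correction the members called were Aars1, Cars1, Mars1 and Sars1, all higher, with log2 changes of 0.39 to 0.79, against 11.3% of all genes (6.11% higher and 5.24% lower). Hars1 was then at 0.23 (edgeR adjusted p = 0.0636, range over alternatives 0.00236 to 0.559) and Farsa at 0.25 (0.0935, range 0.0103 to 0.502), so both lost the call. Cars1, Mars1 and Sars1 charge cysteine, methionine and serine. The corrected value of Aars1, 0.79 against 0.30 without correction, rests on an annotated transcript of 5750 bases that runs past the end of its RefSeq gene. Aars1 passed in 10 of the 23 alternatives, against 15 for Hars1 and 13 for Farsa. It passed in 2 of the 12 fits with 1 library left out (edgeR adjusted p 0.0444 to 0.165). With library totals it was at 0.21 (edgeR adjusted p = 0.137). Leaving out WT chow replicates 1 and 2 together left 0 members called, with the same direction in these 5 genes; edgeR then called 15 of all genes.

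Of the 32 members that missed the threshold in WT, 9 had a negative change, and 4 had an adjusted p under 0.07, all with a positive change. Rars1 changed by 0.39 ± 0.14 on the log2 scale (edgeR adjusted p = 0.0537) and Farsb, the other subunit of the phenylalanine enzyme, by 0.37 ± 0.13 (0.0566). Fars2, the mitochondrial phenylalanine enzyme, stood at 15.8, 17.0 and 21.9 CPM in WT chow and 26.2, 22.6 and 23.8 CPM in WT HFD, a log2 change of 0.41 ± 0.14 (edgeR adjusted p = 0.0548). Mars1 was at 0.28 (edgeR adjusted p = 0.0697). With the length and GC correction Rars1 was at 0.22 and Farsb at 0.19. No other mitochondrial gene had an unadjusted edgeR p under 0.05, which 4860 of all 12339 genes had. DESeq2 called 1 mitochondrial gene. By enzyme class, 3 of 18 class II genes rose and 0 fell, against 9.5% of all genes higher and 11.8% lower. Of 18 class I genes 0 rose and 2 fell. With the length and GC correction 2 genes of each class rose and 0 fell, against 6.11% of all genes higher and 5.24% lower. The difference between the classes was not tested. Eprs1 joins an enzyme of each class and was counted in neither.

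Leaving out 1 library moved the number called in WT from 0 (without WT chow replicate 1 or without replicate 3 of WT HFD) to 12 (without WT chow replicate 3). It was 1 without WT chow replicate 2, 2 without replicate 1 or 2 of WT HFD, and 8 without meKO HFD replicate 2. With library totals in place of TMM factors 0 members rose and 2 fell, where 3 rose and 2 fell before. The median log2 change of all genes was then -0.12, with 22.2% of them called.

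In meKO macrophages the same diet contrast gave 0 called members by edgeR, against 0.105% of all genes, and DESeq2 also called 0 members. An unadjusted edgeR p under 0.05 was reached by 4 of the 37 members, against 1962 of all 12339 genes. The median log2 change was 0.07 (0.11 over cytosolic and 0.04 over mitochondrial genes) against -0.01 over all genes. Groups did not overlap for 5 members with HFD higher and 1 with HFD lower, against 10.3% and 9.38% of all genes. Rars1 stood at 87.0, 102 and 89.2 CPM in meKO chow and at 100.2, 140.1 and 127 CPM in meKO HFD. Its groups overlapped, and the log2 change was 0.40 ± 0.14 (edgeR adjusted p = 0.234). Farsa stood at 31.7, 30.4 and 30.6 CPM in meKO chow and 36.5, 36.5 and 41.9 CPM in meKO HFD. Its groups did not overlap, and the log2 change was 0.31 ± 0.11 (edgeR adjusted p = 0.246).

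The diet effect was not shown to differ between genotypes for any member. In the genotype by diet interaction edgeR called 0 members, against 0.0162% of all genes, and DESeq2 called 0 members. An unadjusted edgeR p under 0.05 was reached by 1 of the 37 members, against 756 of all 12339 genes. That member was Vars1, whose diet change was -0.90 in WT and -0.27 in meKO, an interaction of 0.63 ± 0.25 on the log2 scale (edgeR adjusted p = 0.785). Iars1 followed, at -0.45 in WT and -0.06 in meKO, with an interaction of 0.39 ± 0.19 (edgeR adjusted p = 0.797).

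**Figure D3:**
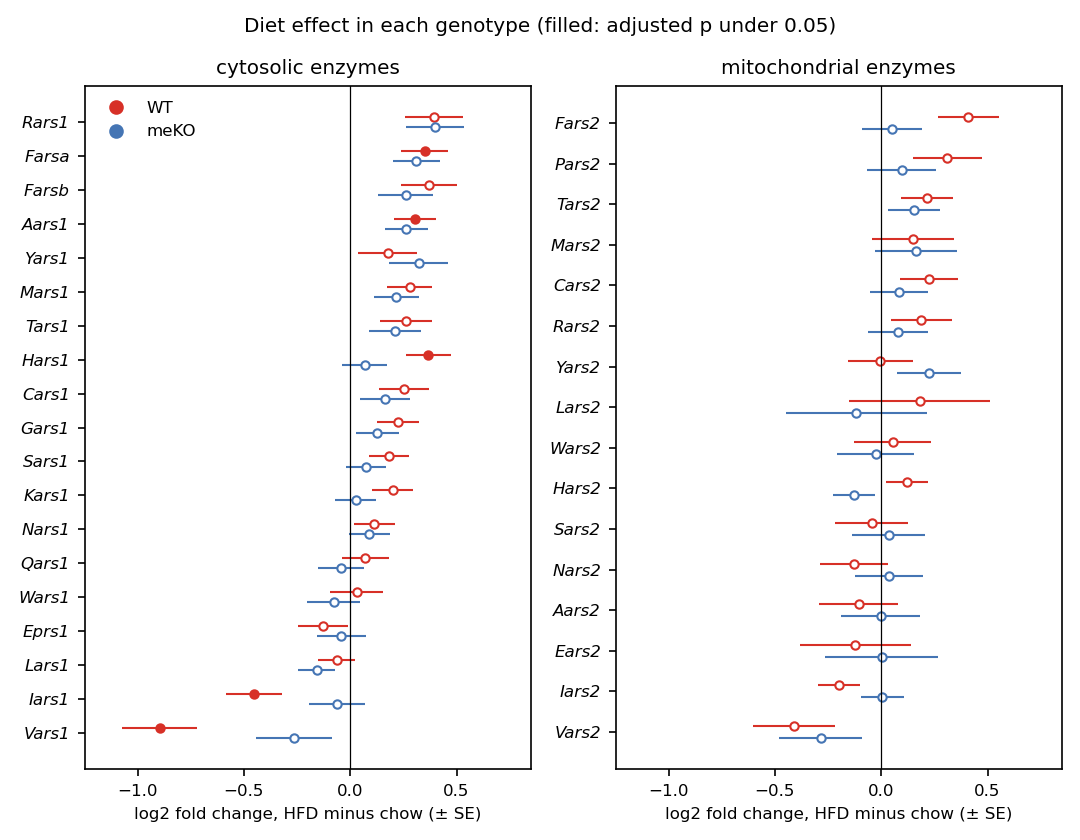
Log2 fold change of HFD against chow for 35 of the 37 genes in WT and in meKO, with bars of 1 SE; filled points have an edgeR adjusted p under 0.05. In WT 3 genes rose and 2 fell, led by Vars1 at -0.90, and in meKO no point is filled.

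Averaged over the genotypes, HFD raised 7 cytosolic members and lowered 1, so that 8 of 37 (21.6%) passed, against 30.2% of all genes (14.9% higher and 15.3% lower). Farsa, Rars1, Aars1, Farsb, Mars1 and Hars1 were among those that rose, and Vars1 fell. Of the 17 mitochondrial genes edgeR called 0 and DESeq2 called 0. An unadjusted edgeR p under 0.05 was reached by 2 of the 17, against 5388 of all 12339 genes. The median log2 change was 0.19 over cytosolic and 0.03 over mitochondrial genes, against -0.03 over all genes. In 10 of the 14 amino acids with a gene of the same letter in both compartments, the change was more positive for the cytosolic gene.

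Farsa changed by 0.33 ± 0.08 on the log2 scale (edgeR adjusted p = 0.0103). All 6 HFD libraries, at 31.8 to 41.9 CPM, lay above the 6 chow libraries, at 25.2 to 31.7 CPM. Mars1, the methionine enzyme, stood at 24.8, 21.2 and 21.0 CPM in WT chow, 27.8, 25.5 and 28.1 in WT HFD, 24.0, 25.3 and 24.3 in meKO chow, with 26.8, 29.0 and 29.8 in meKO HFD. Its chow and HFD libraries did not overlap either, and it changed by 0.25 ± 0.07 (edgeR adjusted p = 0.0258). These were the only members whose 6 HFD libraries all lay above the 6 chow libraries, against 2.99% of all genes, and none lay all below, against 2.77%.

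Rars1 stood at 77.4, 79.9 and 91.2 CPM in WT chow and 102, 99.98 and 124 CPM in WT HFD, beside the meKO values above. Its lowest HFD value, 99.98 CPM, was below the 102 CPM of meKO chow replicate 2, and it changed by 0.39 ± 0.10 (edgeR adjusted p = 0.0120). Aars1 stood at 77.3, 75.8 and 69.1 CPM in meKO chow and 84.4, 89.4 and 92.9 CPM in meKO HFD, so its groups did not overlap in either genotype. Over both it changed by 0.28 ± 0.07 (edgeR adjusted p = 0.0132). Farsb stood at 50.9, 49.97 and 59.7 CPM in WT chow, 68.4, 63.5 and 75.6 in WT HFD, 62.1, 63.0 and 58.0 in meKO chow, with 60.0, 84.6 and 74.6 in meKO HFD. The library meKO HFD 1 lay among the meKO chow libraries, and the change was 0.31 ± 0.09 (edgeR adjusted p = 0.0233).

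Hars1 changed by 0.22 ± 0.07 (edgeR adjusted p = 0.0415), and in meKO its groups overlapped, at 72.2, 71.9 and 65.1 CPM on chow and 68.4, 77.4 and 73.5 CPM on HFD. Vars1 changed by -0.58 ± 0.13 (edgeR adjusted p = 0.00848). In meKO it stood at 9.50, 7.92 and 11.7 CPM on chow and 7.43, 8.66 and 8.14 CPM on HFD, which overlap.

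**Figure D4:**
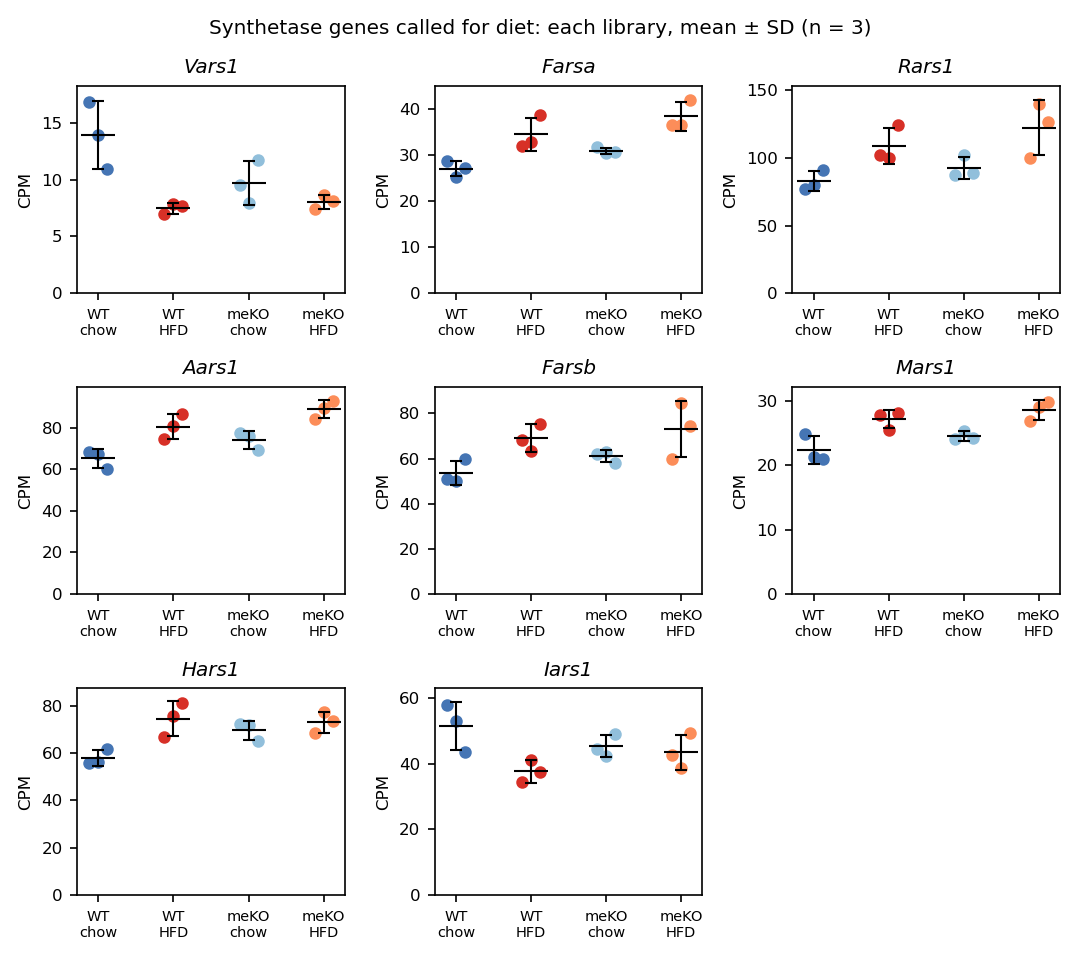
CPM per library of 8 members called in WT or averaged over genotypes; points are libraries and bars the mean and SD of 3. Vars1 is highest in WT chow at 10.9 to 16.9 CPM, and Farsa lies at 25.2 to 31.7 CPM in the chow libraries and at 31.8 to 41.9 CPM in the HFD libraries.

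With 1 library left out, 4 to 13 members passed, the 13 without WT chow replicate 3 (43.2% of all genes called). It was 4 or 5 without WT chow replicate 1 (16%) or 2 (18%), or replicate 3 of WT HFD (15.9%). The same held without meKO chow replicate 1 (24.4%) or 3 (16.5%), or replicate 2 of meKO HFD (18.1%). Farsa, Rars1 and Aars1 each passed in 21 of the 22 alternatives. The exception in each was the fit without WT chow replicates 1 and 2, which left 1 WT chow library, assumed to vary like the others. There the log2 change was 0.32 for Farsa (edgeR adjusted p = 0.0882, range over alternatives 0.000458 to 0.0882), 0.32 for Rars1 (0.146, range 0.000665 to 0.146) and 0.34 for Aars1 (0.0619, range 0.000582 to 0.0619). Vars1 passed in 19 and did not pass with the length and GC correction, at -0.26 (edgeR adjusted p = 0.142, range 0.000428 to 0.166). With that correction Farsa was at 0.26, Rars1 at 0.27 and Farsb at 0.18 on the log2 scale, and all 3 passed. Hars1 was at 0.12 (edgeR adjusted p = 0.119, range 0.00870 to 0.281). Of the 22 alternatives Farsb passed in 16 and Mars1 in 13. With library totals Mars1 was at 0.19 (edgeR adjusted p = 0.0825) and Hars1 at 0.16 (0.0957), so neither passed.

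The split by the ATF4 list, 12 cytosolic genes taken as its targets, turned on that correction. Without it, 2 of the 12 genes rose on HFD over both genotypes (Aars1 and Mars1), while of the 8 cytosolic genes off the list 5 rose and 1 fell, against 14.9% of all genes higher and 15.3% lower. With it, 6 of the 12 rose and 3 of the 8, against 22.1% of all genes (12.1% higher and 10.1% lower), and none of the 20 fell. The difference between the lists was not tested. The 6 were Aars1 at 0.61 on the log2 scale (0.28 without correction, with the same limit on its transcript length), Mars1 at 0.35, Cars1 at 0.34, Yars1 at 0.33, Tars1 at 0.33 and Sars1 at 0.29, with edgeR adjusted p from 0.00339 for Aars1 to 0.0266 for Yars1. Yars1 and Tars1 charge tyrosine and threonine. Without the correction 3 of the 8 enzymes of the complex rose, Rars1 and Mars1 among them, against 14.9% of all genes higher. Among the 12 cytosolic genes outside the complex 4 then rose and 1 fell, against 14.9% higher and 15.3% lower. With the correction 2 of the 8 and 7 of the 12 rose and 0 fell, against 12.1% of all genes higher. The difference between these sets was not tested either.

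Genotype moved no member past the threshold. On chow edgeR called 0 of the 37, against 0.081% of all genes, and DESeq2 called 0 members. An unadjusted edgeR p under 0.05 was reached by 3 of the 37, against 2447 of all 12339 genes. Groups did not overlap for 8 members with meKO higher and 0 lower, against 8.87% and 8.28% of all genes. The median log2 change was 0.12, against -0.001 over all genes. Vars1 was at -0.52 ± 0.17 (edgeR adjusted p = 0.146) and Hars1 at 0.27 ± 0.11 (0.188). On HFD edgeR called 0, against 0.081% of all genes, and DESeq2 called 0 members. An unadjusted edgeR p under 0.05 was reached by 0 of the 37, against 563 of all 12339 genes. Groups did not overlap for 2 members with meKO higher and 1 lower, against 5.45% and 4.85%. The mitochondrial serine enzyme Sars2 was at 4.47, 5.06 and 3.82 CPM in WT HFD and 5.33, 4.58 and 6.67 CPM in meKO HFD, which overlap, with a log2 change of 0.31 ± 0.17 (edgeR adjusted p = 0.999). Yars2, the mitochondrial tyrosine enzyme, was at 0.29 ± 0.15 (0.999).

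Averaged over diets, edgeR called 0 members for genotype, against 0.17% of all genes, and DESeq2 called 0 members. An unadjusted edgeR p under 0.05 was reached by 6 of the 37 members, against 2183 of all 12339 genes. The median log2 change was 0.07, against 0.009 over all genes. Of the 37 members 28 were higher in meKO, against 51.8% of all genes. Tars2, the mitochondrial threonine enzyme, was at 12.3, 15.02 and 14.4 CPM in WT chow, 15.4, 15.9 and 17.2 in WT HFD, 17.7, 17.0 and 14.9 in meKO chow, with 17.2, 19.9 and 18.1 in meKO HFD. The WT and meKO ranges overlapped, and the change was 0.22 ± 0.09 (edgeR adjusted p = 0.227). Aars1 was at 0.16 ± 0.07 (0.262).

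Wars1, Eprs1 and Kars1, which have known roles beyond charging, passed in none of the contrasts. Wars1, the tryptophan enzyme that interferon gamma raises, ran from 45.7 to 64.9 CPM with a median of 54.9, and changed on HFD by 0.03 ± 0.13 in WT (edgeR adjusted p = 0.882). Eprs1, which charges both glutamate and proline, ran from 58.1 to 82.7 CPM with a median of 67.8, both extremes being WT chow libraries. Kars1, the lysine enzyme, ran from 76.8 to 97.8 CPM with a median of 91.1, its lowest values in WT chow replicates 1 and 2. The steadiest member was Lars1, with a coefficient of variation within groups of 2.15%; the median was 8.06% over cytosolic and 12.1% over mitochondrial genes.

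Lars2, the mitochondrial leucine enzyme on chromosome 9 (123366927 to 123462675), varied most, with a coefficient of variation within groups of 34.0%. It stood at 87.4, 68.5 and 70.8 CPM in WT chow and 120.2, 66.9 and 69.8 in WT HFD. In meKO it stood at 54.9, 73.4 and 93.2 CPM on chow and 49.7, 110 and 45.1 CPM on HFD. The extremes lay in WT HFD and meKO HFD, within-group gaps exceeded the group differences, and the diet change was 0.18 ± 0.33 in WT (edgeR adjusted p = 0.712), against -0.12 ± 0.33 (0.885) for the meKO libraries. A gene without a symbol in the table (Entrez 100628626) had a like profile, from 35.3 to 109 CPM, with Pearson's r of 0.973 and Spearman's rho of 0.923 over the 12 libraries, and r of 0.950 without WT HFD 1 and meKO HFD 2. It was chosen after its values were seen. The ribosomal RNA precursor Rn45s gave r of 0.649, and 0.421 without those libraries.

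**Figure D5:**
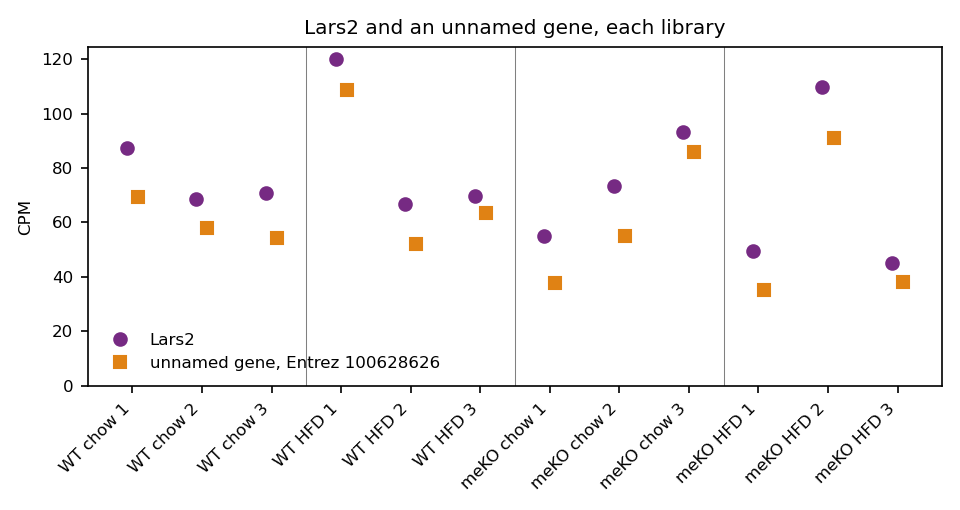
CPM per library of Lars2 and of the unnamed gene Entrez 100628626. Lars2 runs from 45.1 to 120.2 CPM, and both genes are highest in WT HFD replicate 1 and meKO HFD replicate 2.

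Partners of the enzymes were described from a list of 18 scaffold, export and charging-aid genes, 17 of them in the table. In WT 1 rose and 1 fell on HFD, against 9.5% of all genes higher and 11.8% lower, and over both genotypes 3 rose, against 14.9% higher. Eef1e1, a scaffold of the multi-synthetase complex, stood at 17.2, 16.6 and 21.0 CPM in WT chow, 25.7, 26.1 and 38.5 in WT HFD, 21.7, 23.7 and 21.5 in meKO chow, with 24.997, 39.9 and 37.5 in meKO HFD. All HFD values lay above all chow values, and the change over both genotypes was 0.67 ± 0.13 (edgeR adjusted p = 0.00684), passing in 21 of 22 alternatives. Aimp1, another scaffold, rose by 0.34 ± 0.11 (edgeR adjusted p = 0.0382), and was at 0.03 with the length and GC correction (0.732, range over alternatives 0.00129 to 0.732). Aimp2, the remaining scaffold, was at -0.21 ± 0.12 (edgeR adjusted p = 0.187). With the correction it was at -0.46 and passed as lower (edgeR adjusted p = 0.0454, range 0.0454 to 0.377), in 1 of 22 alternatives. Xpot, which exports tRNA from the nucleus, fell in WT from 31.9, 33.3 and 21.2 CPM to 20.7, 21.3 and 20.4 CPM, a log2 change of -0.47 ± 0.15 (edgeR adjusted p = 0.0393). Its transcript is 6005 bases long, and with the correction it was at -0.15 (0.273, range 0.000293 to 0.960).

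Of 24 listed genes of the amino acid response other than synthetases, 7 rose and 0 fell on HFD in WT, against 9.5% of all genes higher and 11.8% lower. Over both genotypes 8 rose and 1 fell, against 14.9% and 15.3%. With the length and GC correction 3 rose and 0 fell in WT, against 6.11% of all genes higher and 5.24% lower. Asns, Mthfd2, Ddit3 and Nupr1 lost the call there. Over both genotypes 8 rose and 1 fell with the correction, against 12.1% of all genes higher and 10.1% lower. Asns, which makes asparagine, changed by 1.08 ± 0.25 over both genotypes (edgeR adjusted p = 0.0101) and Mthfd2, a mitochondrial folate enzyme, by 0.78 ± 0.16 (0.00786). Asns was low, at 1.45 to 2.26 CPM in WT chow and 1.91 to 5.62 CPM in WT HFD, which overlap. Atf4 itself was at 0.10 over both genotypes (edgeR adjusted p = 0.454). Atf5, a related factor, fell by 0.52 ± 0.12 on the log2 scale (edgeR adjusted p = 0.00934).

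Summed markers of some other cell types had chow and HFD ranges that did not overlap within a genotype. Summed over 4 listed of 5 B cell markers, CPM ran from 37.01 to 59.4 in WT chow and 16.3 to 33.6 in WT HFD, with Ebf1 not listed. The 5 dendritic cell markers ran from 29.1 to 44.1 and 14.8 to 23.0 CPM, and the 5 mesothelium markers from 4.43 to 6.08 and 9.26 to 11.7. The 4 listed of 7 neutrophil markers ran from 113 to 129 and 89.0 to 95.5, with Ly6g, Mpo and Elane not listed. Most of that sum was Csf3r, at 98.5 to 119.5 CPM in WT chow and 69.9 to 76.2 in WT HFD. In WT S100a8 went the other way, from 7.81 to 14.4 CPM on chow and 16.6 to 18.1 on HFD. So did S100a9, at 0.20 to 0.37 and 0.76 to 0.96 CPM, while Cxcr2 overlapped. In meKO the chow and HFD ranges were 26.2 to 56.2 and 16.7 to 34.9 CPM for B cell, 19.2 to 41.8 and 21.4 to 32.3 for dendritic cell, 5.12 to 8.28 and 9.07 to 21.1 for mesothelium, and 105 to 110 and 96.2 to 115 for neutrophil markers. The 5 fibroblast markers ran from 46.2 to 90.5 CPM over the 6 chow libraries and from 84.6 to 129 CPM over the 6 HFD libraries. Of 5 eosinophil markers 3 were listed, without Prg2 and Epx, at 19.9 to 28.0 CPM in WT chow and 14.1 to 19.0 in WT HFD, and at 22.0 to 56.3 and 19.1 to 38.1 CPM on chow and HFD in meKO. The 6 T and NK cell markers ran from 5.12 to 14.7 and 8.09 to 9.56 CPM in WT and from 7.04 to 8.47 and 10.99 to 14.9 CPM in meKO. Their part in the synthetase results was not tested.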

How the data were processed

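RNA of 12 macrophage libraries was measured, 3 in each of 4 groups taken from the sample titles. The authors deposited whole-number counts per gene, with Entrez identifiers. The submitters' processing notes name mm10 and DESeq2, with no role; aligner, counter and strand setting are not given in the sources used here. All sample columns were used (0 unused). Genes without a symbol (186) hold 0.440% of the counts.

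Counts were fitted with edgeR 4.0.16 in R 4.3.3 (TMM, filterByExpr, robust quasi-likelihood, 4 group means, two-sided), with Benjamini-Hochberg adjustment over 12339 genes and calls at an adjusted p under 0.05. The fit was tested on simulated data. Alternatives used limma 3.58.1, DESeq2 1.42.0, other scalings and filters, a length and GC correction, and each library left out. CPM use TMM factors; errors given are the SD of libraries or the SE of a log2 change.

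Transcript length is that of the longest GENCODE M21 basic transcript, matched by Entrez identifier for 11532 genes (93.5%) and all 37 members; the longest was chosen after seeing the data, since a short fragment lowers the median length of 1 member. A few withheld items are not reported here. The members, lists and tests were chosen with earlier results of these data known. Named by rule were up to 6 called members per contrast with the smallest p (the 2 smallest where none was called), Aars1, Eprs1, Wars1, Kars1 and Lars2, and from other lists up to 4 called genes per contrast, Atf4, Xpot, Aimp1, Aimp2 and Eef1e1; other genes were named after their values were seen. Replicate numbers follow accession order and pair nothing. Replicates differed by a chi-square per degree of freedom of at least 16.9, so none was a copy.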

Additional observations from a re-analysis of the deposited data

How the results depend on the processing

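Over 21 gene-level results, each under 22 or 23 alternatives (473 combinations), 399 kept direction and side of the threshold, 65 lost the call, 9 gained it and 0 changed direction. The number of members called for diet in WT (5) was 2 with library totals (22.2% of all genes called), 9 with DESeq2 (27.9%), 17 with voom and library quality weights (52.0%), and 1 with the groups compared alone (16.7%). It was 0 without WT chow replicates 1 and 2 (0.122%), an alternative chosen after seeing the data, and 0 to 12 when 1 library was left out (0.778% to 39.9%). The 0 came without replicate 1 of WT chow or replicate 3 of WT HFD, 1 without WT chow replicate 2, 2 without WT HFD replicate 1 or 2, 8 without meKO HFD replicate 2 and 12 without WT chow replicate 3. For diet averaged over genotypes (8) it was 13 with DESeq2 (34.4%), 20 with quality weights (51.0%), 0 without both WT chow libraries (1.64%) and 4 to 13 with 1 library left out (15.9% to 43.2%). The 13 came without WT chow replicate 3, and 4 without replicate 2 of WT chow, replicate 3 of WT HFD, meKO chow replicate 3 or meKO HFD replicate 2; 5 came without replicate 1 of WT chow or of meKO chow. The counts of 0 became, with quality weights, 2 for diet in meKO (3.23% of all genes), 8 for genotype on chow (32.8%), 1 for the interaction (2.39%) and 10 for genotype averaged over diets (31.1%). Genotype on chow gave 0 to 3 with 1 library left out, the 3 without WT chow replicate 3 (20.6%). The cause of these differences was not tested. With library totals the median of all genes for diet in WT was -0.12 in place of -0.03, and the cytosolic median was 0.12, with 14 of 20 positive. No paired analysis was possible because replicate numbers were given in accession order only. Depth limits the lowest members most: Ears2 reached 35 counts in a library.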

Other observations

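Of 51 listed genes of tRNA processing and modification, 4 rose and 0 fell on HFD in WT (7.84% called, against 21.3% of all genes). Over both genotypes 13 rose and 1 fell, against 14.9% of all genes higher and 15.3% lower. With the length and GC correction 7 rose and 2 fell, against 12.1% of all genes higher and 10.1% lower. Rpp25 and Pop7, subunits of the tRNA-trimming enzyme RNase P, changed by 1.95 (edgeR adjusted p = 0.00772) and 0.59 (0.00904) over both genotypes, and by 1.81 and 0.29 with the correction. Rpp25 was very low, at 0.23 to 0.26 CPM in WT chow and 0.69 to 1.35 in WT HFD. In meKO its libraries overlapped, at 0.14 to 0.90 CPM on chow and 0.71 to 2.71 on HFD. Tsen15, of the tRNA splicing endonuclease, changed by 0.53 (edgeR adjusted p = 0.00952), and by 0.22 with the correction (0.0989, range over alternatives 0.000636 to 0.189). Elac1 fell by 0.34 on the log2 scale (edgeR adjusted p = 0.0155).

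Of 12 elongation factor genes, 1 rose and 1 fell in WT (16.7% called, against 21.3% of all genes). Eif5a was at 0.46 ± 0.12 (edgeR adjusted p = 0.0219), and at 0.22 with the correction (0.0675, range over alternatives 0.000456 to 0.559). Eef2k, the kinase that inhibits elongation factor 2, was at -0.78 ± 0.16 (edgeR adjusted p = 0.0118), and at -0.36 with the correction (0.0966, range 0.000247 to 0.373). Both calls were lost there.

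Of 19 listed interferon gamma response genes, 3 rose and 4 fell on HFD in WT, against 9.5% of all genes higher and 11.8% lower. Ciita, which switches on MHC class II genes, was at -1.88 ± 0.27 (edgeR adjusted p = 0.00308), and at -1.39 with the correction. The proteasome genes Psmb10, Psmb8 and Psme2 rose by 0.55, 0.42 and 0.57 on the log2 scale, but were at 0.30, 0.26 and 0.15 with the correction, where none of them passed. With it 0 genes of the list rose and 3 fell, against 6.11% of all genes higher and 5.24% lower.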
